A study of Mus musculus with 2 samples.

Results

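The 10 genes described here make, recycle or import the pyrimidine nucleotides of a cell, and their RNA was followed in mouse leukemia cells given brequinar or deprived of estradiol. They are Cad, Dhodh and Umps of de novo synthesis, the CTP synthases Ctps and Ctps2, the salvage enzymes Uck1, Uck2 and Upp1, the kinase Cmpk1 and the nucleoside carrier Slc29a1. The genes were listed by name from the pathway, out of 54736 gene symbols or IDs in the count matrix, and all 10 were found. Upp1 had at most 8 molecules in any condition, and the other 9 reached 5 CPM or more in both 0 h cultures. CPM stands for the unique molecular identifiers (UMIs) of a gene per 1000000 spliced UMIs of its culture. It is a tag count with no scaling for transcript length, so levels are compared between conditions and not between genes.

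The cells were 63.3 cells, a mouse acute myeloid leukemia (AML) line, profiled one by one with droplet RNA sequencing after lipid-anchored DNA barcodes had marked each culture (MULTI-seq). All 10 cultures grew in medium with dialyzed serum, glutamine, stem cell factor from a hamster producer line and, until withdrawal, 0.5 µM beta-estradiol. Dialysis takes small molecules, nucleosides among them, out of serum. In the brequinar series, cells received 2 µM brequinar for 6, 12, 24 or 48 h, with estradiol kept in the medium as far as the labels say. In the withdrawal series, cells were washed and kept without estradiol for the same hours. Each series has a 0 h culture of its own, whose solvent, if any, is not stated, and no untreated culture stands at the later hours, so time in culture and treatment cannot be told apart. Each condition is 1 culture of 1 line. No test was therefore possible, and the 95% intervals, all exact, express counting error alone. What estradiol controls in the line is not given in the sources used here. Both runs of the single pool share 1 matrix with no mark of the run, so they are not replicates.

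The conditions held 528 to 1536 cells and 5236694 to 19931921 UMIs, with median UMIs per cell of 14849 and 15229 at 0 h, 9782 at 48 h of brequinar and 6509 at 48 h after withdrawal. The labelled cell type was checked against markers. All 8 myeloid progenitor markers (Mpo, Elane and Kit among them) were at 5 CPM or more in all 10 conditions, T cell markers summed to at most 0.595 CPM with Cd4 at 0 throughout, and stromal markers to at most 1.75 CPM. Erythroid markers summed to 0.583 to 8.86 CPM, megakaryocyte markers to 24.0 to 169 CPM and B cell markers to 3.41 to 32.9 CPM. The 7 neutrophil markers summed to 290.3 to 1389 CPM in 9 conditions and to 50700 CPM at 48 h of withdrawal, where all 7 were at 5 CPM or more. The 5 monocyte and macrophage markers summed to 13.8 to 470 CPM, highest in that same culture. Below, a gene counts as higher or lower when the cultures differ at least 1.5-fold with 5 CPM or more in either. Between the 0 h cultures this held for none of the 9 measured pathway genes and for 0.169% of 8277 genes.

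Pyrimidine nucleotides are built de novo from glutamine, bicarbonate and aspartate. CAD, the protein of Cad, carries the opening enzyme activities in the cytosol, DHODH oxidizes dihydroorotate to orotate at the inner mitochondrial membrane, and UMPS joins orotate to phosphoribosyl pyrophosphate and yields UMP. Brequinar inhibits DHODH. In salvage, uridine or cytidine enters through carriers such as the one encoded by Slc29a1 (ENT1) and is phosphorylated by UCK1 or UCK2, while uridine phosphorylase, from Upp1, splits uridine into uracil and ribose phosphate. Both routes meet at the kinase of Cmpk1, which turns UMP and CMP into diphosphates, and the CTP synthases turn UTP into CTP. Dividing blood progenitors and leukemia cells draw on these nucleotides for RNA, DNA, lipids and sugar nucleotides, and DHODH inhibitors are known for causing AML cells to mature.

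The sequences before the RefSeq start sites of Cad, Umps, Ctps and Ctps2 are shown because the results turn on these genes: Cad, Umps and Ctps were lower after treatment, and Ctps2, the paralog of Ctps, was higher. Each line gives the 250 bases before the RefSeq start farthest upstream (build GRCm38.p6, 5′ to 3′ along the gene), and capitals mark a GC box, GGGCGG or its complement CCGCCC. The windows lie at chr5:31054530-31054779 on the plus strand, chr16:33967039-33967288 on the minus strand, chr4:120570277-120570526 on the minus strand and chrX:162901310-162901559 on the plus strand.
Cad: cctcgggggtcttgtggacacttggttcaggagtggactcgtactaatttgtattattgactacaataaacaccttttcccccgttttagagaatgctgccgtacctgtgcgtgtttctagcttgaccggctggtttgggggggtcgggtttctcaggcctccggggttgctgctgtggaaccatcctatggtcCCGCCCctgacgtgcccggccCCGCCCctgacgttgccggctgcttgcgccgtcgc
Umps: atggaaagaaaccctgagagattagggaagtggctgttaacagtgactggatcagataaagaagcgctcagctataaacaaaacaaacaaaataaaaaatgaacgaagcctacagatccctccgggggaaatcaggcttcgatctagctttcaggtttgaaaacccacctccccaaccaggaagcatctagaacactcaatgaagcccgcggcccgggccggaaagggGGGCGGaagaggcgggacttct
Ctps: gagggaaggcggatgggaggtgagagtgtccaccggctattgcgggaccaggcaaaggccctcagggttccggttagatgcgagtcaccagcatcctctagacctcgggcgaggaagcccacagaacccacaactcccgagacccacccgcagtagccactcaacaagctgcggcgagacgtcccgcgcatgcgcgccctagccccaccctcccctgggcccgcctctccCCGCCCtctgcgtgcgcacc
Ctps2: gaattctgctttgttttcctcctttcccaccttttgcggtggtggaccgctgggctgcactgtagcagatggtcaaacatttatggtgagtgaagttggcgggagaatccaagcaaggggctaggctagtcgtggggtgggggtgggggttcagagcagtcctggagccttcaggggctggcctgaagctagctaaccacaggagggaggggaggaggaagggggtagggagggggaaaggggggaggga
Of the 9 pathway genes with an entry, 6 held a GC box (Cad, Umps, Ctps, Uck2, Cmpk1 and Upp1), against 33.0% of 27025 genes with a window of this length. Ctps2, Uck1 and Slc29a1 held none. None of the 9 held the E-box CACGTG (6.04% of genes), the ATF4 response element TGATGCAA (0.825%), the box CCAAT (34.5%) or the E2F core GCGGGAA (3.86%), with both strands searched in every case. The GC box therefore occurs both in genes that were lower after treatment and in Cmpk1, which stayed level. Such matches describe letters in 1 window per gene, and Ctps and Ctps2 have further start sites.

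Across the pathway, nearly every synthesis, salvage and uptake gene had lower RNA at 48 h of estradiol withdrawal. At 48 h of brequinar the lower genes were Cad, Dhodh and Ctps. The series were closer at 24 h. There 4 of 9 were lower after withdrawal (Cad, Dhodh, Umps and Slc29a1, against 13.1% of all genes). Under brequinar 3 of 9 were lower at 24 h (Cad, Dhodh and Ctps, against 12.5%). Ctps2 was the only one of the 9 measured genes higher than 0 h at any time, in both series, and Cmpk1 was never past 1.5-fold. At 48 h of withdrawal 7 of the 9 were lower and 1 was higher, against 38.1% and 22.8% of 8843 genes. That culture is also the one with the high neutrophil markers, whose part in the result was not tested. At 48 h of brequinar 3 were lower and 1 was higher, against 16.5% and 28.2% of 8911 genes. Markers also moved between 0 and 48 h of brequinar: the neutrophil sum was 290.3 and 1389 CPM, the monocyte and macrophage sum 13.8 and 233 CPM, the megakaryocyte sum 31.4 and 169 CPM and the B cell sum 3.41 and 28.6 CPM, with Ms4a1 at 0 at 48 h. Their part in the result was not tested. Cells with 10% or more mitochondrial UMIs numbered 277 of 1503 at 0 h and 9 of 528 at 48 h of brequinar, and without such cells the same genes were past the line at 48 h. The plot of CPM by hour shows all 10 genes.

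**Figure D1:**
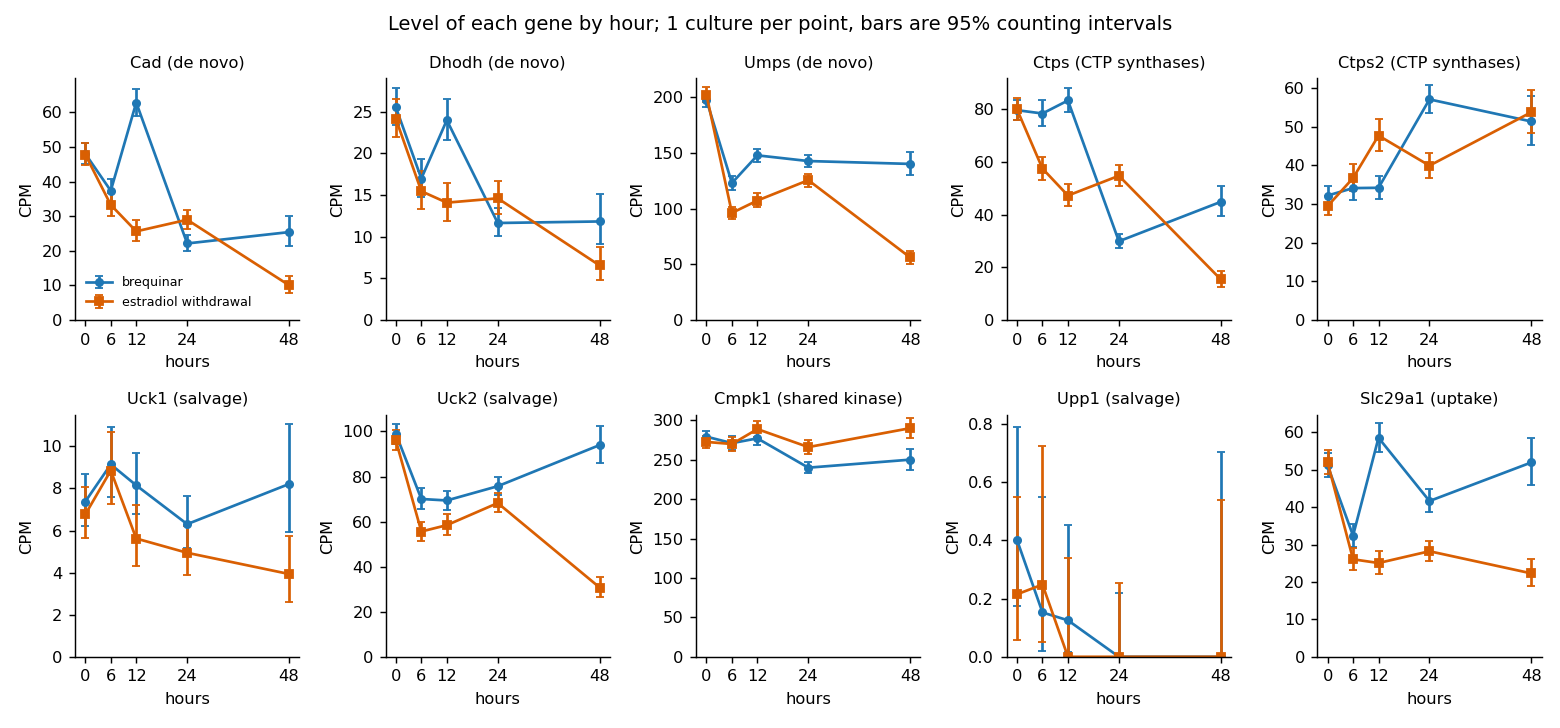
CPM (y axis, UMIs per 1000000) of each of the 10 genes against hours (x axis) of brequinar (circles) or estradiol withdrawal (squares), with 1 culture per point and 95% counting intervals as bars. Cad, Dhodh, Umps, Ctps, Uck2 and Slc29a1 end lowest at 48 h of withdrawal, Ctps2 ends above both 0 h cultures in both series, Cmpk1 stays between 240.0 and 290.1 CPM and Upp1 lies near 0.

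At 24 h of brequinar the same 4 genes were past the line as at 48 h, and the other times differed. At 6 h of brequinar 3 of 9 were lower (Dhodh, Umps and Slc29a1; 4.75% of 8625 genes) and 0 were higher (12.8%). At 12 h of brequinar 0 were lower (4.53% of 8786 genes) and 0 higher (19.8%), so no gene of the set was past the line at that time. At 24 h of brequinar 3 were lower (Cad, Dhodh and Ctps; 12.5% of 9012 genes) and Ctps2 was higher (33.5%). In the withdrawal series 4 of 9 were lower at 6 h (Dhodh, Umps, Uck2 and Slc29a1; 7.53% of 8716 genes) and 0 higher (17.8%). At 12 h 6 were lower (Cad, Dhodh, Umps, Ctps, Uck2 and Slc29a1; 10.2% of 8665 genes) and Ctps2 was higher (17.4%). At 24 h 4 were lower (Cad, Dhodh, Umps and Slc29a1; 13.1% of 8482 genes) and 0 higher (10.5%). A single gene of 9 was a smaller share than that of all genes that were higher, in each comparison where Ctps2 was called, and the lower genes were a larger share than that of all genes in each comparison except brequinar 12 h.

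The median log2 ratio to 0 h of the 9 measured genes (with 1 CPM added) was -0.35, 0.06, -0.38 and -0.16 at 6, 12, 24 and 48 h of brequinar, where the median of all measured genes was 0.09, 0.17, 0.25 and 0.10. In the withdrawal series the median of the 9 was -0.51, -0.74, -0.54 and -1.61, against 0.12, 0.07, -0.12 and -0.28 for all measured genes. The pathway median thus lay below that of all genes at every time. The size of the 48 h withdrawal result depends on the scaling: with median-of-ratios size factors in place of total UMIs, the median of all genes moved from -0.28 to 0.07 and that of the 9 from -1.61 to -1.27, and the share of higher genes among those past 1.5-fold moved from 37.4% to 56.3%.

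**Figure D2:**
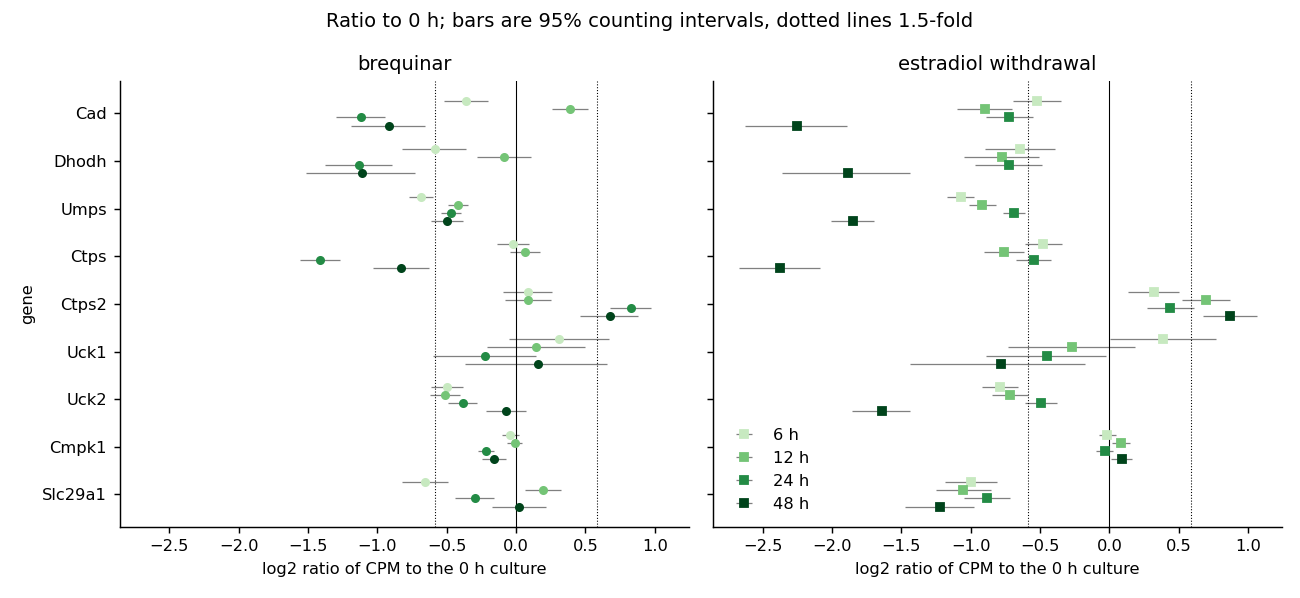
Log2 ratio of CPM to the 0 h culture of the same series (x axis) for the 9 measured genes (y axis), with brequinar on the left and estradiol withdrawal on the right, shades from light to dark for 6 to 48 h, bars for 95% counting intervals and dotted lines at 1.5-fold. Ctps2 lies to the right of 0 at all times in both series, but its bars at 6 and 12 h of brequinar cross 0. With thinned cells its ratio at 6 h of withdrawal is 0.960. Cad, Dhodh, Umps, Ctps and Uck2 reach their lowest ratios at 48 h of withdrawal.

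Cad and Dhodh, early genes of de novo synthesis, were lower late in both series. Cad, which encodes the cytosolic protein that opens the route, stood at 48.0, 37.3, 62.8, 22.1 and 25.4 CPM at 0, 6, 12, 24 and 48 h of brequinar. Over the same hours of withdrawal it stood at 47.8, 33.3, 25.6, 29.0 and 10.1 CPM. The brequinar culture at 12 h was the highest of all 10 conditions, 1.31-fold (1.20 to 1.43) above the next, and withdrawal 48 h was the lowest. Against its 0 h culture Cad was 2.17-fold lower (1.92 to 2.45) at 24 h of brequinar and 1.89-fold lower (1.58 to 2.28) at 48 h. After withdrawal it was already 1.87-fold lower (1.63 to 2.14) at 12 h and reached 4.75-fold lower (3.72 to 6.16) at 48 h. The course under brequinar was not steady: Cad was 1.68-fold (1.51 to 1.88) higher at 12 h than at 6 h, then 2.84-fold (2.52 to 3.21) lower at 24 h than at 12 h. In the withdrawal series no step between neighbouring times was upward beyond counting error.

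Dhodh, which encodes the enzyme that brequinar inhibits, followed Cad closely. Its level was 25.5, 17.0, 24.0, 11.7 and 11.8 CPM over the brequinar series and 24.2, 15.5, 14.1, 14.6 and 6.56 CPM over the withdrawal series. Both 0 h cultures and brequinar 12 h were indistinguishable in counting error at the top, and withdrawal 48 h stood alone at the bottom, 1.78-fold (1.28 to 2.52) under the next condition in the order. Dhodh RNA was 2.19-fold lower (1.85 to 2.60) at 24 h and 2.16-fold lower (1.65 to 2.86) at 48 h of brequinar. After withdrawal it was lower at all 4 times, by 1.56-fold (1.31 to 1.86) at 6 h and 3.68-fold (2.71 to 5.12) at 48 h. Its 6 h brequinar value, 1.5-fold lower (1.28 to 1.77), sat on the 1.5-fold line and was under it in 4 of the 8 recalculations of its ratio. Across the 10 conditions the log2 levels of Cad and Dhodh had a Pearson r of 0.975, a description over cultures that share 1 pool.

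Umps, whose protein completes UMP, was at least 1.5-fold lower at 6 h of brequinar and at all 4 times of withdrawal. It measured 197, 123, 148, 143 and 140.0 CPM in the brequinar series. The withdrawal series gave 202, 96.0, 107, 125 and 56.1 CPM. All 8 treated cultures lay under both 0 h cultures, which did not differ beyond counting error. At 6 h Umps was 1.61-fold lower (1.52 to 1.70) under brequinar and 2.10-fold lower (1.97 to 2.25) after withdrawal. At 12, 24 and 48 h of brequinar it was 1.34-fold, 1.38-fold and 1.41-fold under 0 h, short of the 1.5-fold line. In the withdrawal series it stood at 125 CPM at 24 h, was 2.24-fold (2.00 to 2.50) lower at 48 h than at 24 h, and ended 3.60-fold lower (3.24 to 4.01).

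The CTP synthase genes differed from 0 h in opposite directions. Ctps, the isoform whose loss is known to impair lymphocyte proliferation, measured 79.7, 78.4, 83.3, 29.9 and 44.9 CPM over the brequinar series and 80.0, 57.5, 47.3, 54.8 and 15.4 CPM over the withdrawal series. Under brequinar it held its 0 h level through 12 h, was 2.66-fold lower (2.41 to 2.95) at 24 h, and was 1.5-fold (1.28 to 1.76) higher at 48 h than at 24 h while still 1.78-fold lower (1.55 to 2.04) than at 0 h. After withdrawal it was under 0 h at each time, 1.69-fold (1.53 to 1.87) at 12 h and 5.18-fold (4.25 to 6.37) at 48 h. That last value was the furthest from 0 h of any ratio in the set, although its interval overlapped that of Cad at the same time.

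Ctps2 encodes the other CTP synthase. It measured 32.2, 34.1, 34.2, 57.1 and 51.4 CPM at 0, 6, 12, 24 and 48 h of brequinar, and 29.5, 36.7, 47.7, 39.9 and 53.8 CPM over the withdrawal series. The 0 h cultures were the lowest of all 10. At 6 and 12 h of brequinar Ctps2 was within counting error of 0 h, at 1.06 (0.937 to 1.20) and 1.06 (0.946 to 1.19) of it. Brequinar 24 h, brequinar 48 h, withdrawal 12 h and withdrawal 48 h formed the top, with no neighbouring pair among these 4 apart beyond counting error. The ends of this group did differ, with brequinar 24 h at 57.1 CPM (53.5 to 60.8) and withdrawal 12 h at 47.7 CPM (43.7 to 52.0). Ctps2 was 1.77-fold (1.60 to 1.96) its 0 h level at 24 h and 1.59-fold (1.38 to 1.84) at 48 h of brequinar. After withdrawal it was 1.62-fold (1.43 to 1.83) at 12 h, 1.36-fold (1.20 to 1.53) at 24 h and 1.82-fold (1.59 to 2.09) at 48 h. Over the alternative processings its 48 h ratio ranged from 1.51 to 1.78 under brequinar and from 1.74 to 2.32 after withdrawal.

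Within the pair, the share of UMIs from Ctps2 followed both genes. Under brequinar it was 28.8%, 30.3%, 29.1%, 65.6% and 53.4% at 0, 6, 12, 24 and 48 h. After withdrawal it was 26.9%, 39.0%, 50.2%, 42.2% and 77.7%. The interval at 48 h of withdrawal (73.7 to 81.4%) did not reach any other condition. The summed level of both genes changed less, from 112 to 96.2 CPM over 48 h of brequinar and from 109 to 69.2 CPM over 48 h of withdrawal.

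**Figure D3:**
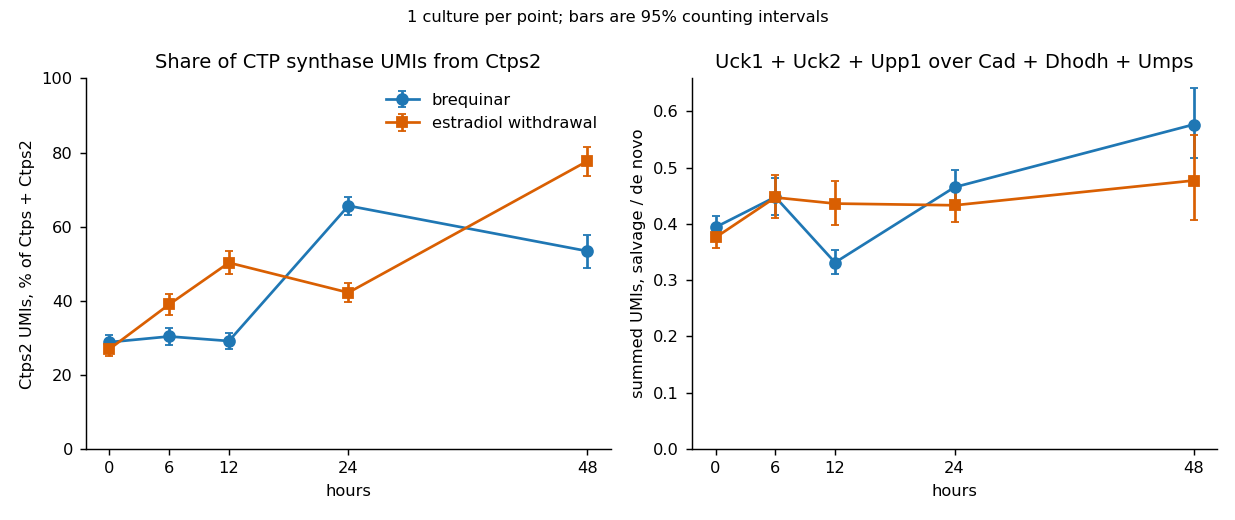
Left, percent of the UMIs of Ctps and Ctps2 together that came from Ctps2 (y axis) by hour (x axis); right, summed UMIs of Uck1, Uck2 and Upp1 divided by those of Cad, Dhodh and Umps by hour, with brequinar as circles, estradiol withdrawal as squares, 1 culture per point and 95% counting intervals. The Ctps2 share reaches 65.6% at 24 h of brequinar and 77.7% at 48 h after withdrawal, and the salvage to de novo ratio is highest at 48 h of brequinar (0.577).

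In salvage, Uck2, the uridine-cytidine kinase known to be high in proliferating and tumour cells, stood near its 0 h level at 48 h of brequinar and under it at 48 h after withdrawal. It measured 98.9, 70.0, 69.4, 75.7 and 94.0 CPM in the brequinar series and 96.0, 55.6, 58.4, 68.2 and 30.7 CPM in the withdrawal series. Under brequinar it stood at 0.701 of its 0 h level at 12 h and was back at 0.950 (0.859 to 1.05) of it at 48 h. After withdrawal it was 1.73-fold lower (1.58 to 1.89) at 6 h and 3.12-fold lower (2.71 to 3.62) at 48 h, the lowest of the 10 conditions. Its course followed that of Umps across the conditions (Pearson r 0.960 of the log2 levels) more than that of Cad (0.709).

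Uck1, the related kinase, was sparse, with 27 to 147 UMIs per condition. Its level was 7.38, 9.14, 8.15, 6.30 and 8.21 CPM under brequinar and 6.76, 8.85, 5.62, 4.94 and 3.93 CPM after withdrawal, and no neighbouring pair in the order of the 10 conditions was apart beyond counting error. Between times, Uck1 at 12 h of withdrawal was at 0.635 (0.456 to 0.878) of its 6 h level. It was 1.72-fold lower (1.13 to 2.71) at 48 h of withdrawal, a call that ended with median-of-ratios size factors and with cell cycle classes held at their 0 h shares (its ratio ranged from 0.466 to 0.852 over the alternatives). Barcodes of 2 to 100 UMIs, a range commonly taken as free RNA rather than cells, carried Uck1 at 15.1 CPM (27 UMIs), above its level in every condition. Uck1 also overlaps Pomt1 on the opposite strand, and whether the counting used strand is not given in the sources used here. Upp1, uridine phosphorylase, gave 8, 2, 2, 0 and 0 UMIs over the brequinar series and 4, 3, 0, 0 and 0 over the withdrawal series. Taken as 3 counts of the total, a count of 0 allows up to 0.178 CPM at 24 h of brequinar, 0.573 CPM at 48 h of brequinar and 0.437 CPM at 48 h after withdrawal, beside 0.401 and 0.215 CPM in the 0 h cultures of brequinar and withdrawal. The interval of its ratio to 0 h ended at 0.694 at 24 h of brequinar, under no change, but at 2.23 at 48 h of brequinar and 4.11 at 48 h after withdrawal, where a change was not detectable at this depth.

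Cmpk1, the UMP-CMP kinase shared by both routes, was the most even of the set. It stood at 279, 271, 277, 240.0 and 250.2 CPM over the brequinar series and 273, 270.0, 289, 266 and 290.1 CPM over the withdrawal series. The highest condition was 1.21-fold above the lowest, and no neighbouring pair in the order differed beyond counting error. Some steps in time did go beyond it, such as 0.866 (0.829 to 0.904) from 12 to 24 h of brequinar. From 24 to 48 h of withdrawal the step was 1.09 (1.03 to 1.15). At 48 h the ratio of Cmpk1 to 0 h was 0.895 (0.843 to 0.951) under brequinar and 1.06 (1.01 to 1.12) after withdrawal, which became 1.36 with median-of-ratios size factors.

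Uptake was read from Slc29a1, the gene of the equilibrative nucleoside carrier ENT1. It measured 51.1, 32.4, 58.5, 41.6 and 51.9 CPM under brequinar and 52.0, 26.1, 25.1, 28.2 and 22.3 CPM after withdrawal. In the withdrawal series all 4 later cultures lay between 22.3 and 28.2 CPM and did not differ from their neighbours in the order of levels beyond counting error. The 48 h level was nevertheless below that of 24 h, at 0.790 (0.652 to 0.954) of it. Against 0 h Slc29a1 was already 1.99-fold lower (1.75 to 2.27) at 6 h of withdrawal, and was 2.33-fold lower (1.96 to 2.78) at 48 h. Under brequinar Slc29a1 was 1.58-fold lower (1.41 to 1.77) at 6 h, then 1.81-fold (1.61 to 2.03) higher at 12 h than at 6 h, and level with 0 h at 48 h at a ratio of 1.02 (0.885 to 1.16).

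De novo and salvage genes were then summed. The de novo sum was 271, 177, 234, 176 and 177 CPM at 0, 6, 12, 24 and 48 h of brequinar and 274, 145, 147, 169 and 72.7 CPM over the withdrawal series. The salvage sum was 107, 79.3, 77.6, 82.0 and 102 CPM under brequinar and 103, 64.7, 64.0, 73.2 and 34.7 CPM after withdrawal. Umps made up 63.0 to 80.8% of the de novo UMIs and Uck2 85.9 to 93.2% of the salvage UMIs, so the sums mostly set Uck2 against Umps. The ratio of salvage to de novo UMIs was 0.394, 0.448, 0.331, 0.465 and 0.577 under brequinar and 0.376, 0.447, 0.436, 0.433 and 0.477 after withdrawal. Under brequinar at 48 h (0.517 to 0.642) it lay above the 0 h ratio (0.374 to 0.414), with the salvage sum at 0.957 of its 0 h level and the de novo sum at 0.654. At 12 h of brequinar it lay below 0 h (0.310 to 0.353). Under brequinar it also lay above 0 h at 6 h (0.416 to 0.482) and 24 h (0.436 to 0.496). After 48 h of withdrawal both sums were lower, at 0.265 of 0 h for de novo and 0.337 for salvage, and the ratio was 0.477 (0.407 to 0.558). After withdrawal the ratio lay above that of its 0 h culture (0.356 to 0.396) at every later time. The intervals of both series at 48 h overlapped.

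Set side by side at matched hours, the treatments parted at 12 and 48 h. At 6 h 0 of the 9 genes were 1.5-fold apart (5.46% of 8725 genes). At 12 h 4 were apart (24.7% of 8911 genes), all higher under brequinar: Cad 2.45-fold (2.14 to 2.81), Slc29a1 2.34-fold (2.04 to 2.68), Ctps 1.76-fold (1.59 to 1.96) and Dhodh 1.70-fold (1.41 to 2.07). At 24 h the picture turned for Ctps, the 1 gene apart (41.7% of 8988 genes), which was 1.83-fold (1.64 to 2.05) higher after withdrawal. Ctps2 leaned the other way at these hours, with brequinar over withdrawal ratios of 0.717 (0.635 to 0.810) at 12 h and 1.43 (1.29 to 1.59) at 24 h.

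At 48 h 7 of the 9 were apart (48.3% of 8932 genes), all higher under brequinar than after withdrawal. Uck2 was 3.06-fold (2.60 to 3.61) higher, Ctps 2.91-fold (2.30 to 3.69), Cad 2.53-fold (1.87 to 3.43) and Umps 2.50-fold (2.20 to 2.83). The intervals of these 4 overlapped. Slc29a1 stood at 2.33-fold (1.90 to 2.86), Uck1 at 2.09-fold (1.26 to 3.51) and Dhodh at 1.81-fold (1.21 to 2.71). Over the alternative processings the ratio ranged from 1.02 to 2.63 for Uck1 and from 1.41 to 2.58 for Dhodh. These calls of Uck1 and Dhodh therefore depend on the processing. The lowest ratios of Uck2, Ctps, Cad, Umps and Slc29a1 were 2.20, 2.07, 1.97, 1.84 and 1.81, past 1.5-fold throughout. The exceptions were Ctps2, at a ratio of 0.955 (0.813 to 1.12), and Cmpk1, at 0.862 (0.804 to 0.925). The culture at 48 h of withdrawal also held the neutrophil markers at 50700 CPM, against 1389 CPM at 48 h of brequinar.

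Cells also held fewer UMIs at the later times, with all cultures sequenced in the same pool. Whether cells held less RNA or fewer of its molecules were captured per cell cannot be told apart. Per cell and unscaled, Umps was at 2.62 and 1.39 UMIs at 0 and 48 h of brequinar and at 2.78 and 0.400 at 0 and 48 h of withdrawal. Ctps2 was at 0.427 and 0.509 UMIs per cell in the brequinar series but at 0.406 and 0.383 in the withdrawal series, so its higher CPM after withdrawal was not matched by more molecules per cell. Cmpk1, level in CPM, was at 3.75 and 2.07 UMIs per cell at 0 and 48 h of withdrawal.

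The share of cells with at least 1 UMI was compared after each cell was thinned to 2500 UMIs, leaving out the 13 to 249 shallower cells of a condition. For Umps it was 38.2% (35.6 to 40.9) at 0 h and 28.3% (24.5 to 32.5) at 48 h of brequinar, and 39.7% (36.9 to 42.6) and 10.6% (8.64 to 12.8) at those times of withdrawal; without thinning these were 79.0%, 67.2%, 80.7% and 27.1%. For Ctps the thinned share was 19.4% (17.2 to 21.8) at 0 h and 2.82% (1.83 to 4.13) at 48 h of withdrawal (57.8% and 9.66% unthinned). Ctps2 went the other way, from 6.56% (5.21 to 8.14) to 11.9% (9.88 to 14.3) thinned, while its unthinned shares were 31.3% and 31.0%. Under brequinar the thinned share for Ctps2 was 7.33% (5.98 to 8.88) at 0 h and 12.2% (9.53 to 15.4) at 48 h. The 1% of cells with the most UMIs of a gene held 3.72 to 10.6% of them for Umps, 5.16 to 19.8% for Ctps, 8.45 to 22.2% for Dhodh and 13.5 to 37.0% for the sparse Uck1, over the 10 conditions. All cells are of 1 line, so no cell type that lacks these genes was there to gauge free RNA.

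Cell cycle class shares moved with the treatments. Cells were scored for S and G2/M genes after thinning and called G1-like where neither score was above 0, and 4 to 55 cells per condition lay within 0.02 of that line. The S share was 33.5%, 25.4%, 36.2%, 8.16% and 4.85% at 0, 6, 12, 24 and 48 h of brequinar and 32.9%, 22.1%, 17.8%, 25.9% and 7.09% after withdrawal. At 24 h of brequinar 88.7% of cells were called G2/M, and at 48 h of withdrawal 62.4% were G1-like. G2/M was already the most frequent call at 0 h, at 59.8% for brequinar and 61.1% for withdrawal. The G1-like shares at 0 h were 6.72% and 5.97%. Levels were therefore also read within each class, on the full counts of these cells.

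Within classes the CTP synthase pattern was present in each. At 24 h of brequinar Ctps stood at 36.1 CPM in G1-like, 47.4 in S and 28.4 in G2/M cells, where at 0 h it stood at 99.5, 86.5 and 74.8. Ctps2 stood at 74.6, 58.6 and 56.4 CPM at 24 h and at 41.0, 32.7 and 31.5 at 0 h. Both genes thus differed from 0 h in the same direction in all 3 classes. The G1-like and S classes held only 45 and 117 cells at 24 h, against 1271 in G2/M. The G1-like ratios to 0 h were 0.363 (0.197 to 0.623) for Ctps and 1.82 (1.12 to 2.91) for Ctps2. At 48 h of withdrawal Umps was at 32.7 CPM in G1-like, 113 in S and 72.3 in G2/M cells, beside 0 h levels of 193, 221 and 196. Its ratio to 0 h was lowest in the G1-like class, and so was that of Uck2, which stood at 19.5, 59.0 and 37.4 CPM. At 48 h of brequinar Ctps2 was 1.05 (0.659 to 1.65) of its 0 h level in the G1-like class and 1.69 (1.43 to 2.00) in G2/M, with 25 cells left in S.

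**Figure D4:**
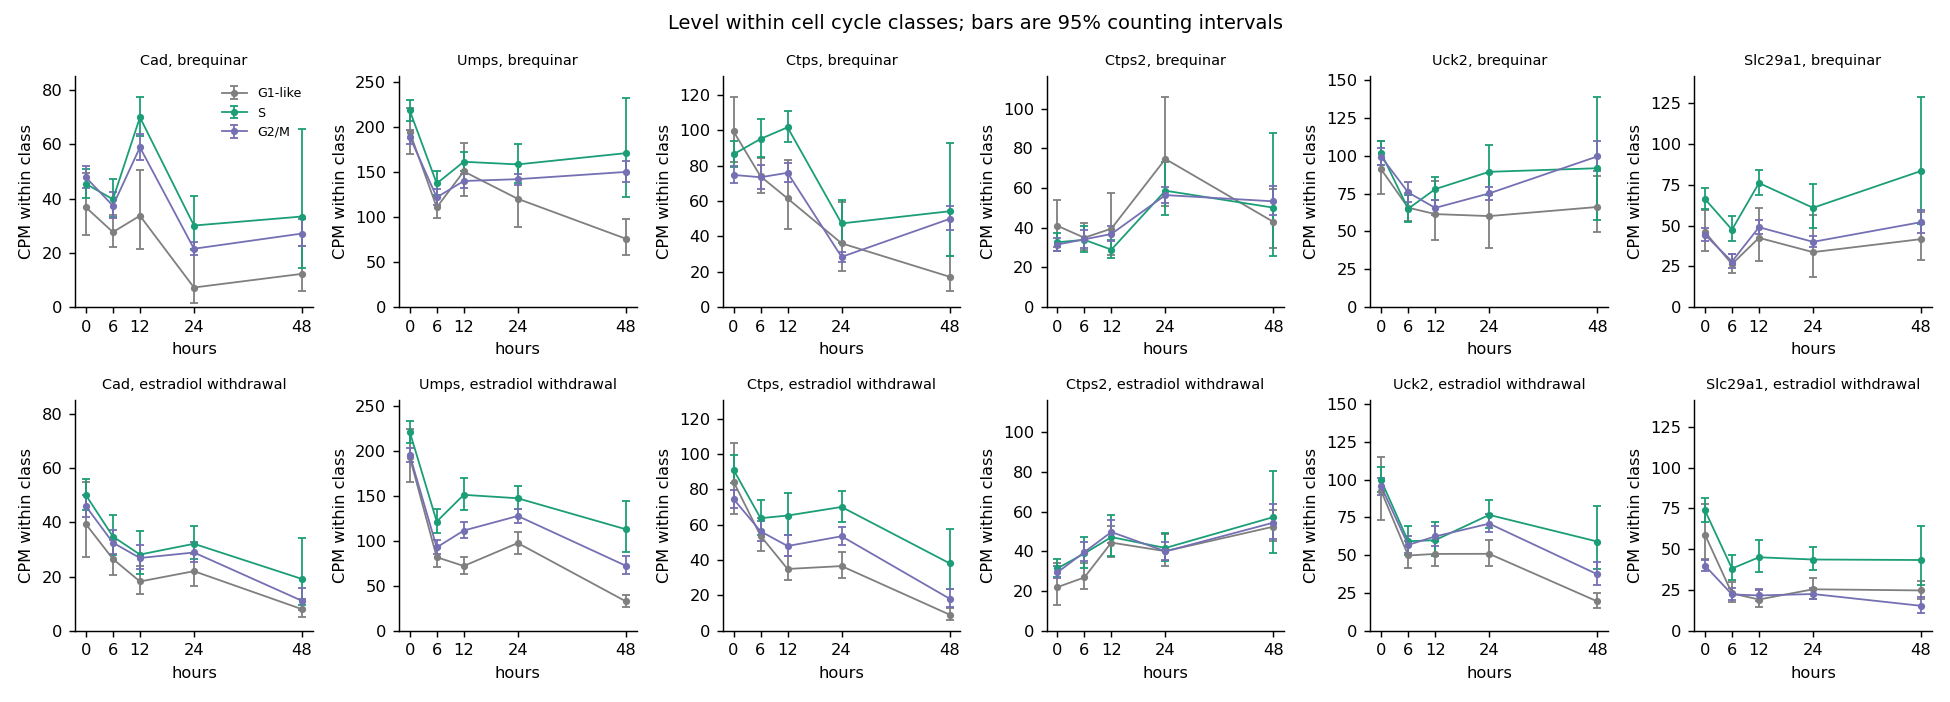
CPM within the G1-like (grey), S (green) and G2/M (violet) classes (y axis) by hour (x axis) for 6 genes, with brequinar above, estradiol withdrawal below and 95% counting intervals as bars. By 48 h of withdrawal Cad, Umps, Ctps and Uck2 lie under their 0 h levels in all 3 classes and lowest in G1-like cells, and Ctps2 lies above its 0 h level in all 3.

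Neighbouring pathways were read, for 48 h, from 5 lists of related genes at the same 1.5-fold rule. Of all genes, 16.5% were lower and 28.2% higher at 48 h of brequinar, and 38.1% lower and 22.8% higher at 48 h of withdrawal. The precursor supply list covers enzymes and carriers for phosphoribosyl pyrophosphate, aspartate and glutamine. Of its 11 measured genes 8 were lower at 48 h of brequinar and 9 at 48 h after withdrawal, with none higher, and its median log2 ratio was -0.78 and -1.38. Got2 and Got1, the aspartate transaminases, were the lowest under brequinar, from 155 to 69.1 CPM (2.24-fold lower, 2.00 to 2.50) and from 162 to 73.9 CPM (2.19-fold lower, 1.97 to 2.43). After withdrawal Got1 went from 165 to 35.0 CPM (4.73-fold lower, 4.15 to 5.42) and Prps1, a synthetase of phosphoribosyl pyrophosphate, from 122 to 29.0 CPM (4.20-fold lower, 3.63 to 4.87). Among the highest ratios in the list was that of Slc25a22, a mitochondrial glutamate carrier, at 5.32 and 6.68 CPM (ratio 1.26, 0.832 to 1.86) for 0 and 48 h of brequinar. After withdrawal they belonged to Slc25a12, a mitochondrial aspartate-glutamate carrier, at 56.9 and 50.7 CPM (ratio 0.891, 0.787 to 1.01), and Prpsap2, at 25.5 and 18.4 CPM (ratio 0.720, 0.587 to 0.878).

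Among genes that spend UTP and CTP, higher levels were more frequent than lower ones at 48 h. Of 11 measured, 5 were higher and 0 lower at 48 h of brequinar, and 6 were higher and 1 lower at 48 h of withdrawal (median log2 ratio 0.57 and 0.56). Pcyt1a, which makes CDP-choline for phosphatidylcholine, went from 12.8 to 61.7 CPM (4.80-fold, 4.06 to 5.68) under brequinar and from 12.8 to 50.3 CPM (3.92-fold, 3.31 to 4.64) after withdrawal. Cds1, a CDP-diacylglycerol synthase, went from 6.37 to 24.3 CPM (3.81-fold, 2.95 to 4.91) under brequinar and stood at 6.12 and 6.41 CPM (ratio 1.05, 0.722 to 1.5) in the withdrawal series. Ugdh, which makes UDP-glucuronate, went from 17.3 to 55.2 CPM (3.19-fold, 2.75 to 3.72) after withdrawal. The lowest was Gne, of sialic acid synthesis, at 19.9 and 17.4 CPM (ratio 0.872, 0.687 to 1.10) under brequinar and 22.0 and 6.85 CPM (ratio 0.311, 0.225 to 0.421) after withdrawal, and Cds2 stood at 13.0 and 13.4 CPM (ratio 1.03, 0.778 to 1.34) under brequinar.

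The diphosphate kinases, which turn UDP and CDP into triphosphates, were lower in part at 48 h. Of 5 measured, 3 were lower at 48 h in each series (median log2 ratio -0.68 under brequinar and -1.59 after withdrawal). Nme1 went from 220.0 to 92.2 CPM (2.39-fold lower, 2.17 to 2.63) under brequinar and from 226 to 57.0 CPM (3.97-fold lower, 3.58 to 4.42) after withdrawal. Nme2 went from 26.7 to 13.6 CPM (1.97-fold lower, 1.54 to 2.56) under brequinar, and Nme4 from 52.5 to 11.4 CPM (4.62-fold lower, 3.67 to 5.90) after withdrawal. Closest to 0 h under brequinar were Nme7, at 15.6 and 12.2 CPM (ratio 0.786, 0.591 to 1.03), and Nme4, at 52.1 and 40.3 CPM (ratio 0.774, 0.664 to 0.898). After withdrawal they were Nme6, at 47.8 and 42.1 CPM (ratio 0.881, 0.769 to 1.01), and Nme7, at 14.1 and 9.62 CPM (ratio 0.684, 0.514 to 0.899).

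Other uptake and salvage genes were mostly low in tag count: 6 of 14 were measured at 48 h of brequinar and 5 of 14 at 48 h after withdrawal. Of these 3 were higher in each series, and 1 was lower under brequinar and 0 after withdrawal. Uckl1, a relative of the uridine-cytidine kinases, went from 20.8 to 37.4 CPM (1.80-fold, 1.51 to 2.14) under brequinar, beside Slc29a3, a lysosomal nucleoside carrier, from 3.41 to 6.11 CPM (1.79-fold, 1.14 to 2.76). After withdrawal Slc29a3 went from 4.13 to 11.5 CPM (2.78-fold, 2.01 to 3.86) and Tk2, mitochondrial thymidine kinase, from 5.64 to 12.4 CPM (2.20-fold, 1.63 to 2.95). Slc29a2, the nearest relative of Slc29a1, went from 5.17 to 2.10 CPM (2.46-fold lower, 1.32 to 5.08) under brequinar. It was lower after withdrawal too, at 4.62 CPM at 0 h and 0.583 CPM at 48 h. Both values lay under the 5 CPM minimum, so it is not among the genes counted for withdrawal. Dck, deoxycytidine kinase, stood at 59.8 and 57.1 CPM (ratio 0.955, 0.838 to 1.08) under brequinar and 59.6 and 45.8 CPM (ratio 0.767, 0.675 to 0.870) after withdrawal, and Slc28a2 at 5.64 and 5.97 CPM (ratio 1.06, 0.720 to 1.53) after withdrawal.

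Of the breakdown genes 5 of 10 were measured at 48 h, with 1 higher and 1 lower under brequinar and 0 higher and 2 lower after withdrawal (median log2 ratio 0.20 and -0.35). The lower counts lay near the shares of all genes, 16.5% under brequinar and 38.1% after withdrawal. Cant1, a nucleotidase that acts on UDP, went from 16.0 to 27.3 CPM (1.71-fold, 1.40 to 2.09) under brequinar and stood at 14.3 and 15.3 CPM (ratio 1.07, 0.843 to 1.34) after withdrawal. Nt5c3, a pyrimidine 5′-nucleotidase, stood at 64.3 and 83.6 CPM (ratio 1.30, 1.16 to 1.45) under brequinar and went from 64.0 to 29.1 CPM (2.20-fold lower, 1.89 to 2.57) after withdrawal. Nt5c2 went from 32.8 to 17.8 CPM (1.84-fold lower, 1.48 to 2.32) under brequinar and stood at 30.3 and 33.7 CPM (ratio 1.11, 0.950 to 1.30) after withdrawal. Nt5m, the mitochondrial deoxynucleotidase, stood at 31.4 and 26.9 CPM (ratio 0.859, 0.710 to 1.03) under brequinar and went from 34.6 to 20.1 CPM (1.72-fold lower, 1.43 to 2.08) after withdrawal. Dpyd, Dpys and Upb1, which degrade uracil, had at most 0.0762 CPM in any condition.

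Genes with the most similar course were sought among 3277 genes at 50 CPM or more on average, by Pearson r of log2 levels over the 10 conditions, which share 1 pool and differ in depth. For Cad these were Psmg4 (0.989), Zranb2 (0.988) and Cops7a (0.986). For Umps they were Mrpl34 (0.976), Dpy30 (0.976) and Polr1d (0.974). Ctps ran closest to Ifrd2 (0.995), Arglu1 (0.992) and Odc1 (0.989), the last of which encodes the ornithine decarboxylase of polyamine synthesis. Ctps2 ran closest to Soat1 (0.979), F13a1 (0.977) and Fuca1 (0.975), which encode a cholesterol acyltransferase, a coagulation factor subunit and a lysosomal fucosidase. For Uck2 they were Eif1ad (0.993), Rrp1 (0.971) and Trappc13 (0.964), and for Slc29a1 Nt5c (0.947), H2afz (0.914) and Med31 (0.905). Among the pathway genes themselves, Ctps2 had a negative r with each of the other 9, from -0.87 with Dhodh to -0.34 with Cmpk1.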

How the data were processed

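The authors deposited UMI counts of spliced RNA for all barcodes of a single pool, and a call of each barcode's culture. Cell Ranger, bustools 0.39.4 and kallisto 0.46 stand in the submitters' processing notes, with no role given. Genome build and annotation were not given in the sources used here, and the deposited counts of unspliced RNA were not used. Of 15582 barcodes with a call, 2777 doublets and 265 negatives were left out by the authors' calls, and 12540 cells were kept. The 26 barcodes listed more than once were all negative.

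Counts were summed per condition and divided by total UMIs (CPM). Ratios carry exact Clopper-Pearson intervals. Log2 medians used CPM + 1. Cells were thinned to 2500 UMIs for shares of cells and for the cell cycle classes, which were scored with scanpy 1.11.5 (Python 3.11.15, numpy 2.4.6, scipy 1.17.1, pandas 2.3.3, matplotlib 3.10.9). The ratio and its interval were tested on simulated data. All 10 pathway genes are named. Of each related list the 2 highest and 2 lowest ratios at 48 h per series are named, where one of the cultures compared reached 5 CPM, except 1 gene that is not reported here. Similar genes were sought for pathway genes averaging 20 CPM or more whose highest and lowest conditions were 1.5-fold apart or more. Alternatives covered scaling, cell weighting, thinning, free RNA, the reference culture, mitochondrial content, cell cycle class shares, the minimum CPM, the fold and the pseudocount. The genes and lists were chosen with earlier results of these data known. Promoters came from RefSeq (GRCm38.p6), which may not be the build of the counts, and 9 of the 10 genes had an entry.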

Additional observations from a re-analysis of the deposited data

How the results depend on the processing

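With 1 culture per condition, no replicate could be left out. No paired analysis was possible because each condition is 1 culture with no replicate numbers. Low depth limits Uck1 and Upp1 most. Of 176 recounts of pathway genes past the fold, 164 stayed within 1.5 times the reported count. Of 576 recalculated ratios to 0 h, 519 moved by less than their counting interval, 56 moved further and 1 turned, and of 252 ratios of brequinar to withdrawal 217 stayed, 33 moved and 2 turned. The ratios that turned crossed 1 although their reported interval excluded it. The cause of these shifts was not tested.

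Changes of direction are given for ratios whose reported interval excluded 1, and for 2 medians of a related list, beside the reported values. Ratios whose interval held 1 also crossed it and are not all listed. Examples are Uck1 at 24 h (brequinar over withdrawal 1.28 reported, 0.898 at the lowest) and Dhodh at 12 h of brequinar (0.940 reported, 1.09 at the highest). With size factors, Uck2 at 24 h had a brequinar over withdrawal ratio of 0.989 (reported 1.11). With thinned cells, Ctps2 had a ratio of 0.960 at 6 h of withdrawal (reported 1.25), and Dhodh a brequinar over withdrawal ratio of 1.04 at 24 h (reported 0.797). With no minimum CPM, the median log2 ratio of other uptake and salvage genes was -0.10 at 6 h and -0.051 at 12 h of withdrawal (reported 0.56 and 0.44).

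The median log2 ratio of the pathway genes at 48 h of withdrawal was -1.27 with size factors, -1.81 with thinned cells, -1.73 after removal of 5% free RNA, -1.14 with cell cycle classes at their 0 h shares, -1.40 with no minimum and -1.34 with 5 CPM added. At 48 h of brequinar it was -0.012 as a mean over cells, -0.28 with class shares, -0.33 at a minimum of 20 CPM and -0.32 with no minimum. It was -0.75 at 6 h of withdrawal with thinned cells and -0.60 at 12 h of withdrawal with class shares.

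The log2 change of the salvage to de novo ratio was 0.37 at 24 h of brequinar and 0.59 at 48 h after withdrawal as a mean over cells. With thinned cells it was 0.35 at 6 h and 0.39 at 24 h of brequinar and 0.45 at 6 h after withdrawal. With class shares it was 0.37 at 48 h of brequinar.

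With thinned cells Uck1 was counted as higher at 6 h in each series (1 gene), and with no minimum Upp1 as lower at 12 h of brequinar (1 gene). At 2-fold, brequinar had 0 lower genes at 6 h, 0 higher at 24 h, and 1 lower (Dhodh) and 0 higher at 48 h. Withdrawal had 1 lower gene at 6 h (Umps), 1 lower (Slc29a1) and 0 higher at 12 h, 0 lower at 24 h and 0 higher at 48 h.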
